A study of Mus musculus with 12 samples.

Results

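The genes *Alas1*, *Alad*, *Uros*, *Urod*, *Cpox*, *Ppox*, *Fech* and *Hpx*, 8 genes of heme synthesis and heme scavenging, were followed across the livers of 12 mice. They were taken from the table by symbol. The table held 48795 genes, all 8 of these genes were among them, and all 8 were among the 13812 genes with enough counts to be tested. The first 7 encode enzymes of heme synthesis, and *Hpx* encodes hemopexin, the plasma protein that binds free heme.

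The livers came from four-month-old female littermates on normal chow, and the question was how loss of *Nts*, the gene of the gut peptide neurotensin, and fasting act on the liver. Among *Nts*+/+ mice, 254, 257 and 323 ate freely and 265, 282 and 322 had no food for 22 h. Among *Nts*-/- mice, 277, 303 and 319 ate freely and 284, 290 and 295 had no food for 22 h, which makes 4 groups of 3. The knockout was present in the whole body, and 1 batch label was shared by all 12 mice. RNA was taken from whole liver, so that fewer cells of a type and less RNA per cell cannot be told apart.

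Library totals lay between 21999647 and 45273069 counts. The targeted gene went against its labels: *Nts* had 0 counts in all 6 libraries labelled *Nts*+/+, and 46, 40 and 15 counts in the fed and 12, 4 and 18 counts in the fasted libraries labelled *Nts*-/-. Genotypes below are therefore those of the labels, and a direction between genotypes holds for libraries so labelled. The 10 hepatocyte markers summed to between 140700 and 174800 CPM, counts scaled to library size, in each liver. *Alb* alone made up most of this sum.

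Heme is an iron-bearing ring made mostly in red cell precursors and, next to them, in hepatocytes, where cytochrome P450 enzymes take up much of it. The path starts in the mitochondrion, where ALAS1 makes aminolevulinic acid from glycine and succinyl-CoA. It goes on in the cytosol, where ALAD, UROS and UROD act, and returns to the mitochondrion for the steps of CPOX, PPOX and FECH, which puts in the iron. ALAS1 sets the rate of the path in the liver and is repressed by heme. Hepatocytes also secrete hemopexin, which carries free heme back to the liver, and haptoglobin, which binds free hemoglobin.

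Of the 8 genes, *Cpox* and *Ppox* were the ones that passed the test between fed and fasted livers, and they moved in opposite directions. Their promoters are shown for that reason. Each line gives the 250 bases before the RefSeq start of the gene (GRCm38.p6), 5′ to 3′ on the strand of the gene, which are chr16:58669958-58670207 on the plus strand for *Cpox* and chr1:171281187-171281436 on the minus strand for *Ppox*. Capitals mark the core of the cAMP response element, TGACG, read here on the other strand as CGTCA.
Cpox: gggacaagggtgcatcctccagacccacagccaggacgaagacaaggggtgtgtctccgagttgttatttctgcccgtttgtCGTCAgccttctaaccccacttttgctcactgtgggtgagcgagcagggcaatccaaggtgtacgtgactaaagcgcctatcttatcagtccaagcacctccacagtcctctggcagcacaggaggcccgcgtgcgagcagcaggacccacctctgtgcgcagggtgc
Ppox: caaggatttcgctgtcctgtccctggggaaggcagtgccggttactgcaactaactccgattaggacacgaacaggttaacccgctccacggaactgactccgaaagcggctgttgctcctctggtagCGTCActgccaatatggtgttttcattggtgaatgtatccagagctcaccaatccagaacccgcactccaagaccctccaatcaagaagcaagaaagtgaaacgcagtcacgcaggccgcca
Both windows hold 1 such match, which begins 168 bases before the start in *Cpox* and 122 bases before it in *Ppox*. This core was searched on both strands and occurs in 17.8% of 32851 promoter windows of this length, so that a match is common and is given as a description. Neither window holds the E-box CACGTG, the nuclear receptor core AGGTCA, the GC box GGGCGG, the forkhead core TGTTTAC or TATAAA. A promoter was given for 7 of the 8 genes, as 10 windows in all, and *Fech* had none. *Alas1*, *Alad* and *Uros* had more than 1 window, while the shares given are per window and not per gene. Of these 7 genes, 5 hold TGACG in a window, *Alas1*, *Alad* and *Uros* beside *Cpox* and *Ppox*, so that it does not set apart the genes that passed. At least 1 window each of *Alad*, *Uros* and *Urod* holds CACGTG, which 6.02% of windows hold, and the window of *Hpx* holds AGGTCA, which 14% hold. GGGCGG, which 32.7% hold, is in windows of *Alas1*, *Alad*, *Uros* and *Urod*.

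*Alas1* (chr9:106233455-106248126) varied more from mouse to mouse than it did between groups. Levels are in CPM normalized with the TMM method of edgeR. In *Nts*+/+ mice *Alas1* was at 113, 216 and 212 CPM in fed livers and at 238, 166 and 286 CPM in fasted livers. The values in *Nts*-/- mice were 94.5, 230 and 141 CPM when fed and 153, 153 and 291 CPM when fasted. Fed and fasted livers overlapped in both genotypes. With fasting the log2 fold change was 0.35 (SE 0.39, adjusted p = 0.575, edgeR quasi-likelihood test) in *Nts*+/+ and 0.36 (SE 0.39, adjusted p = 0.568) in *Nts*-/- livers, and neither passed. Without mouse 295 the value in *Nts*-/- livers was -0.015. Intervals of 95% reached from -0.50 to 1.2 and from -0.49 to 1.22, and so still hold a change as large as that of *Cpox*.

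*Alad* (chr4:62509169-62519918), the zinc enzyme that joins the first precursors into porphobilinogen, was at 111, 110 and 98.7 CPM in fed and at 85, 94.9 and 93.8 CPM in fasted *Nts*+/+ livers. Each fasted value lay below each fed one. The *Nts*-/- livers had *Alad* at 105, 120 and 134 CPM when fed and at 107, 83.2 and 111 CPM when fasted, and here the groups overlapped. Fasting came with a log2 fold change of -0.22 (SE 0.13, adjusted p = 0.276) in *Nts*+/+ and -0.26 (SE 0.13, adjusted p = 0.205) in *Nts*-/- livers. Averaged over both genotypes it was -0.24 (SE 0.10, adjusted p = 0.0677), which did not pass.

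*Uros* (chr7:133686243-133710072), which closes the ring, was a low gene at between 10.4 and 24.1 CPM in the 12 livers. Fed *Nts*+/+ livers spread most, at 18, 10.4 and 23.1 CPM, around the fasted ones at 14.8, 16.4 and 12.8 CPM. The log2 fold change with fasting was -0.23 (SE 0.22, adjusted p = 0.521) in *Nts*+/+ and -0.11 (SE 0.22, adjusted p = 0.774) in *Nts*-/- livers. One end of *Uros*, 740 of its 23830 bases, overlaps *Bccip*, which had up to 2983 counts against at most 899 for *Uros*, and the deposited counts of *Uros* were whole in all 12 mice. With the counts of both genes summed, the value in *Nts*-/- livers turned to 0.36 (adjusted p = 0.0771), while *Bccip* itself rose there by 0.53 (SE 0.13, adjusted p = 0.0155).

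*Urod* (chr4:116989965-116994413), the next enzyme, did not pass either. It was at 66.9, 70.2 and 71.6 CPM in fed and at 57.3, 62.7 and 75.6 CPM in fasted *Nts*+/+ livers, and between 55.1 and 75.8 CPM in the 6 *Nts*-/- livers. The log2 fold change with fasting was -0.09 (SE 0.14, adjusted p = 0.69) and 0.01 (SE 0.14, adjusted p = 0.986) in the 2 genotypes. The 95% intervals, from -0.40 to 0.21 and from -0.30 to 0.31, leave out a change as large as that of *Cpox*.

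*Cpox* (chr16:58670208-58680391), the enzyme of the intermembrane space that makes protoporphyrinogen, rose with fasting in both genotypes. In *Nts*+/+ mice it was at 107, 95.7 and 171 CPM in fed livers and at 256, 243 and 237 CPM in fasted livers. Its level in *Nts*-/- mice was 131, 157 and 115 CPM when fed and 261, 256 and 265 CPM when fasted. Each of the 6 fasted livers was above each of the 6 fed ones. Fasted livers also lay close together, with a coefficient of variation of 4.04% in *Nts*+/+ and 1.76% in *Nts*-/- mice, against 32.6% and 15.6% when fed. The spread of fed *Nts*+/+ livers came mostly from mouse 323, at 171 CPM, and a difference in spread was not tested. For the fast, the log2 fold change was 0.97 (SE 0.19, adjusted p = 0.00374) in *Nts*+/+ and 0.96 (SE 0.19, adjusted p = 0.00424) in *Nts*-/- livers, or 1.97-fold and 1.94-fold. It passed without any single mouse, with values from 0.82 to 1.27 in *Nts*+/+ and from 0.86 to 1.09 in *Nts*-/- livers. In a two-sided exact permutation test of log2 CPM, p was 0.1 in each genotype, which is the smallest that 3 mice against 3 allow. Any groups of this size that do not overlap give this p, so it adds nothing to the values above. *Alad* in *Nts*+/+ livers, which did not pass, had it too.

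*Ppox* (chr1:171275990-171281186), which takes the product of CPOX on to protoporphyrin, fell with fasting in *Nts*+/+ livers. It was at 16.2, 14.3 and 9.93 CPM in fed and at 5.46, 5.75 and 7.86 CPM in fasted *Nts*+/+ livers. The *Nts*-/- livers had it at 11, 10.4 and 14.3 CPM when fed and at 8.38, 8.44 and 7.61 CPM when fasted. Fed and fasted livers did not overlap in either genotype. The log2 fold change was -1.08 (SE 0.20, adjusted p = 0.00302) in *Nts*+/+ livers and -0.55 (SE 0.20, adjusted p = 0.076) in *Nts*-/- livers, where it did not pass. The exact permutation p was again 0.1 in each genotype, the smallest possible, which follows from groups that do not overlap.

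Averaged over the genotypes, *Ppox* fell by 0.81 (SE 0.14, adjusted p = 0.000737) on the log2 scale. The difference between the 2 fasting responses was 0.53 (95% interval -0.08 to 1.14, adjusted p = 0.897), so that the weaker response in *Nts*-/- livers was not shown to differ. *Ppox* had between 115 and 438 counts per library. Its end overlaps *B4galt3* (chr1:171270328-171276896), and its deposited counts were not whole in any of the 12 mice, and neither were those of *B4galt3*, so that some reads were divided between genes. *B4galt3* had log2 fold changes of -0.03 and -0.17 (adjusted p = 0.953 and 0.657). With the counts of both genes summed, the value in *Nts*+/+ livers was -0.59 (adjusted p = 0.0383) and still passed.

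*Fech* on chromosome 18, the ferrochelatase that ends the path, did not pass. It was at 142, 150 and 136 CPM in fed and at 129, 134 and 138 CPM in fasted *Nts*+/+ livers. Among *Nts*-/- livers it was at 152, 146 and 145 CPM when fed and at 136, 124 and 162 CPM when fasted. The groups overlapped, and the log2 fold changes of -0.10 (SE 0.12, adjusted p = 0.61) and -0.07 (SE 0.12, adjusted p = 0.747) had 95% intervals from -0.35 to 0.16 and from -0.32 to 0.19. These intervals hold neither the rise of *Cpox* nor the fall of *Ppox* in *Nts*+/+ livers.

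*Hpx* (chr7:105591613-105600137) was by far the most abundant of the 8. It was at 4217, 4411 and 4104 CPM in fed and at 3532, 3057 and 4312 CPM in fasted *Nts*+/+ livers. In *Nts*-/- livers it was at 3529, 2540.2 and 5107 CPM when fed and at 3635, 2790.2 and 3277 CPM when fasted. Fed *Nts*-/- livers held both the lowest and the highest value of the 12. The log2 fold change with fasting was -0.22 (SE 0.22, adjusted p = 0.52) in *Nts*+/+ and -0.20 (SE 0.22, adjusted p = 0.571) in *Nts*-/- livers. Without mouse 319 the latter was 0.09.

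**Figure D1:**
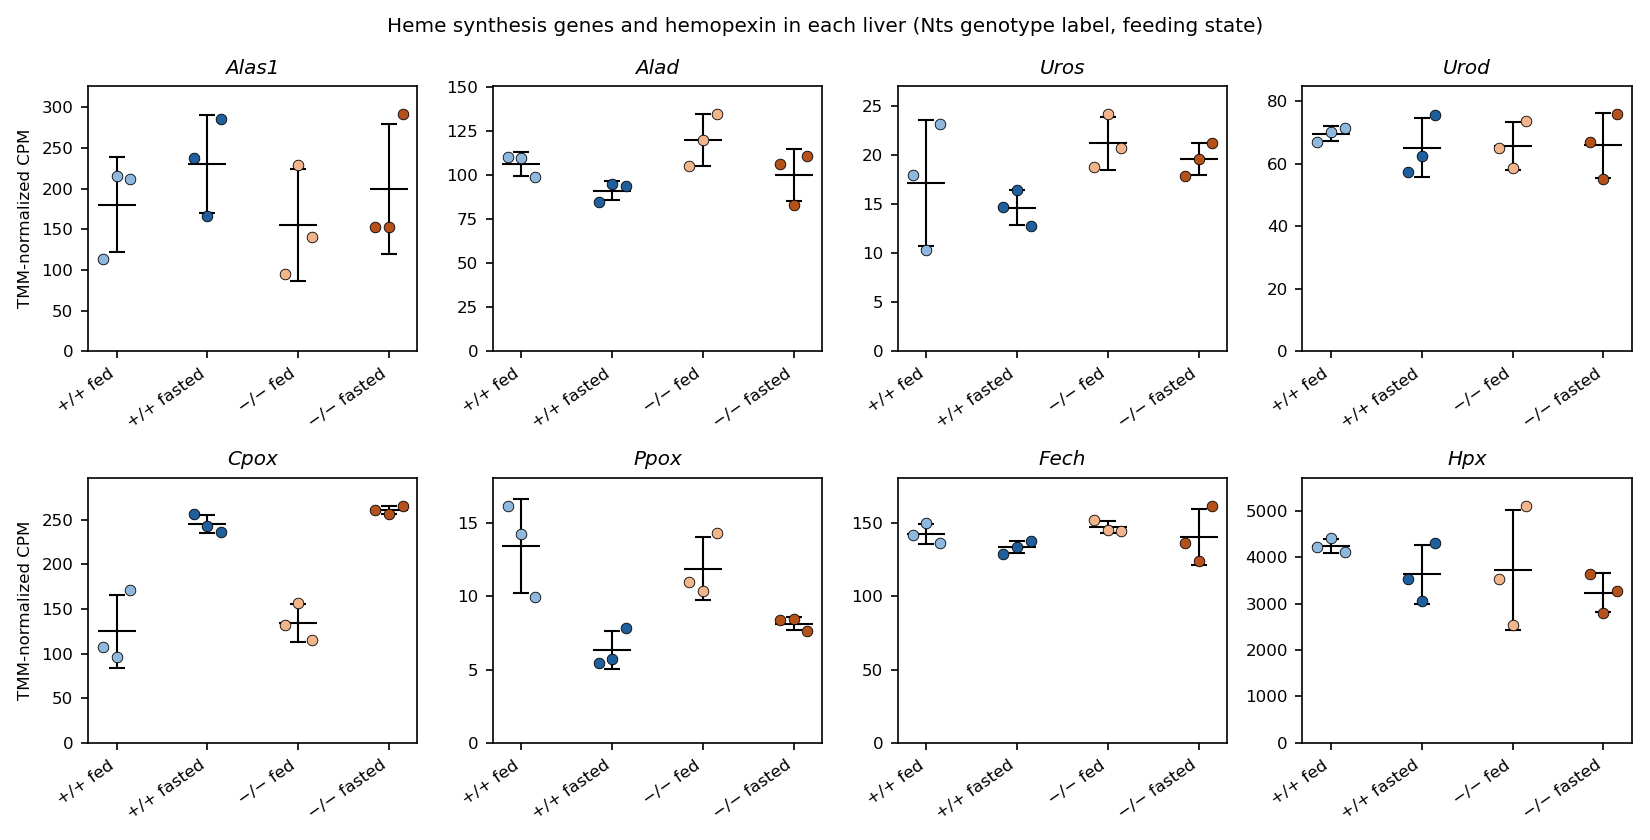
TMM-normalized CPM (y axis, linear from 0, with its own scale in each panel) of the 8 genes in the 12 livers by genotype label and feeding state (x axis). Points are mice and bars are the mean with the SD of 3 mice. *Cpox* is at 237 CPM or more in each fasted liver and at 171 CPM or less in each fed one, *Ppox* is lower in fasted livers, and the other panels overlap in at least 1 genotype.

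Taking the 8 genes as a list, 2 passed with fasting in *Nts*+/+ livers (*Cpox* higher, *Ppox* lower), where 18.1% of all tested genes passed, 8.91% higher and 9.19% lower. In *Nts*-/- livers 1 passed (*Cpox*), where 16.8% of all tested genes passed, 7.7% higher and 9.14% lower. Averaged over the genotypes 2 passed, against 32.8% of all tested genes. These counts do not set the list apart from all genes. The background itself depended on single mice: of all tested genes 2501 passed in *Nts*+/+ livers, and 1326, 1596 and 1224 without mice 254, 257 and 282, while 2 of the 8 passed each time. In *Nts*-/- livers 2326 passed, and 1358, 1523 and 1365 without mice 277, 284 and 290, while 1 of the 8 passed each time. The median log2 fold change of the 8 was -0.16 in *Nts*+/+ and -0.09 in *Nts*-/- livers, and that of all tested genes was -0.003 and -0.011. Groups did not overlap for 3 of the 8 genes in *Nts*+/+ livers (*Cpox*, *Ppox* and *Alad*), where 36% of tested genes did not, and for 2 of the 8 in *Nts*-/- livers, where 35.2% did not.

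No gene of the 8 passed between genotypes. In fed livers the log2 fold changes of *Nts*-/- against *Nts*+/+ lay between -0.22 (*Alas1*) and 0.31 (*Uros*), and the smallest adjusted p was 0.83. In fasted livers they lay between -0.21 (*Alas1*) and 0.42 (*Uros*), and the smallest adjusted p was 0.917. The share of all tested genes that passed was 0% in both comparisons by edgeR, with 876 genes (6.34%) in fed and 685 genes (4.96%) in fasted livers at an unadjusted p under 0.05. By DESeq2, 7 genes passed in fed and 1 in fasted livers, and none of the 8 was among them.

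*Uros* came closest in fasted livers, at 17.9, 19.6 and 21.2 CPM in *Nts*-/- against 14.8, 16.4 and 12.8 CPM in *Nts*+/+ livers. All 3 values were higher, with a log2 fold change of 0.42 (SE 0.22, 95% interval -0.06 to 0.91, adjusted p = 0.917, unadjusted p = 0.0814). *Cpox* in fasted livers also did not overlap between genotypes, although the difference was small, with a log2 fold change of 0.09 (SE 0.19, adjusted p = 0.968). Groups did not overlap for 12.2% of all tested genes in this comparison, and for 2 of the 8 here. In fed livers all 8 overlapped, against 10.7% of tested genes that did not.

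The fasting response of the 8 genes did not pass as differing between genotypes. The differences lay between -0.04 (*Alad*) and 0.53 (*Ppox*), and the smallest adjusted p was 0.897. Of all tested genes 0% passed by edgeR, 663 (4.8%) had an unadjusted p under 0.05, and 2 passed by DESeq2. For *Cpox* the difference was -0.02 (95% interval -0.59 to 0.55).

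**Figure D2:**
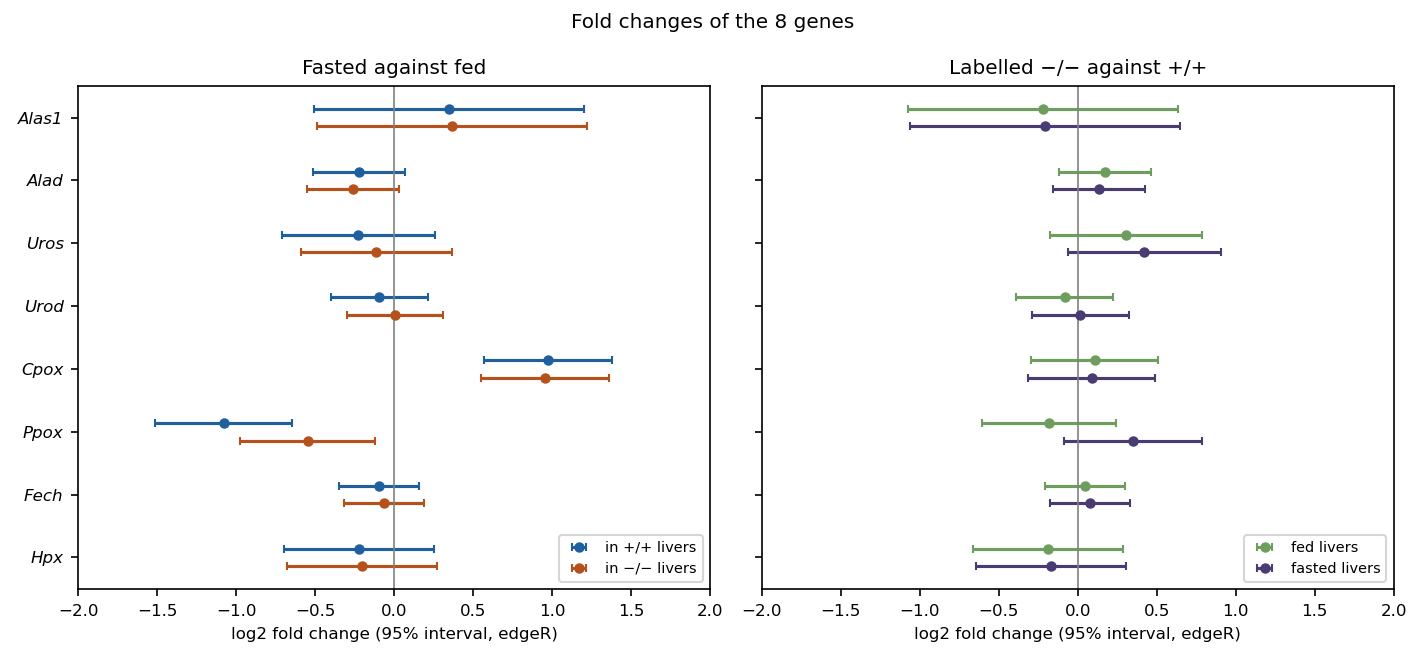
Log2 fold changes (x axis) of the 8 genes (y axis) with 95% intervals from edgeR, for fasted against fed livers in each genotype on the left and for livers labelled *Nts*-/- against *Nts*+/+ in each feeding state on the right. On the left the intervals of *Cpox* and *Ppox* lie on opposite sides of 0, and on the right each interval holds 0.

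To compare levels between genes, CPM was divided by the length of the canonical transcript in kilobases (kb). In fed *Nts*+/+ livers *Alas1* was at 52.9 ± 17.1 (SD, n = 3) CPM per kb, *Cpox* at 37.4 ± 12.2, *Alad* at 24.1 ± 1.52, *Fech* at 22.0 ± 1.06 and *Urod* at 18.3 ± 0.64. *Ppox*, at 4.77 ± 1.13, and *Uros*, at 4.62 ± 1.73, were the lowest, and *Hpx*, at 2826 ± 103, was far above all enzymes. Neighbours in this order that overlapped in their values were *Alas1* and *Cpox*, *Alad* and *Fech*, and *Ppox* and *Uros*.

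After the fast *Cpox* had the highest mean of the 7 enzymes. It was at 73.5 ± 2.97 CPM per kb in *Nts*+/+ and at 78.2 ± 1.38 in *Nts*-/- livers, with *Alas1* at 67.4 ± 17.6 and 58.3 ± 23.4, and the ranges of both genes overlapped. *Ppox*, the next step, was then the lowest at 2.25 ± 0.46 and 2.88 ± 0.17.

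Within each liver, the per-kb level of *Cpox* was between 5.62 and 14.6 times that of *Ppox* in the 6 fed livers and between 25.5 and 39.7 times in the 6 fasted livers. Its ratio to *Fech* was between 1.24 and 2.44 when fed and between 3.18 and 4.00 when fasted, and its ratio to *Urod* between 1.56 and 3.06 and between 3.57 and 5.31. None of these ratios overlapped between fed and fasted livers. All have *Cpox* as numerator, which itself did not overlap, and neither did *Ppox*. The ratios therefore largely restate those changes and are given as a description. The ratio of *Cpox* to *Alas1* did overlap, at between 0.453 and 1.42 in fed and between 0.848 and 1.75 in fasted livers.

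**Figure D3:**
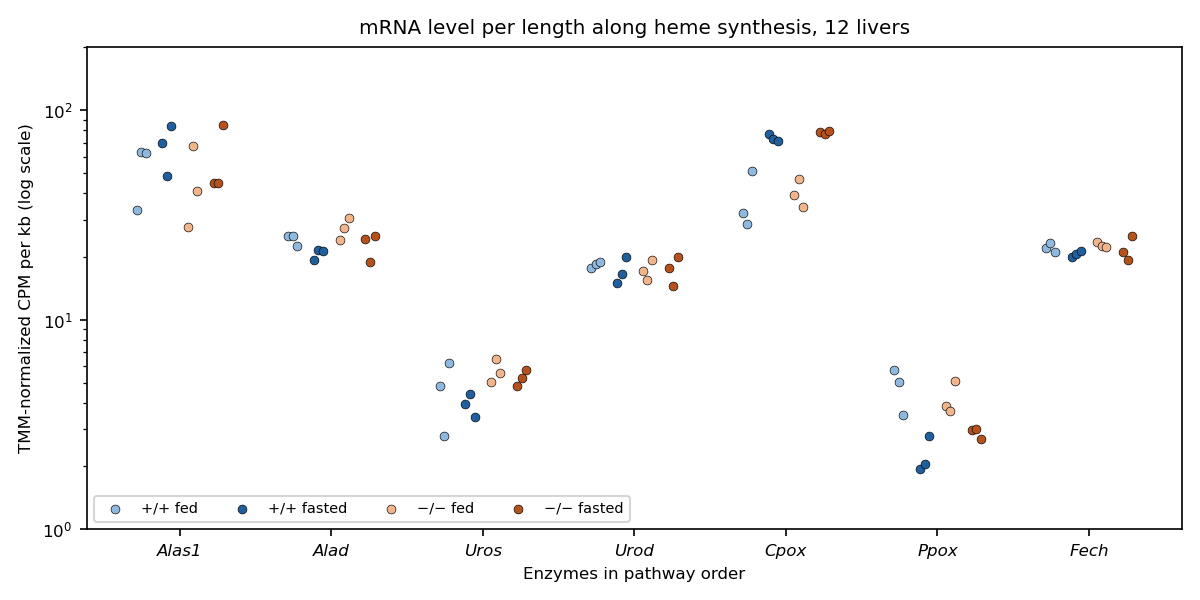
TMM-normalized CPM per kb of canonical transcript (y axis, log scale) of 7 enzymes of heme synthesis in pathway order (x axis), with 1 point for each of the 12 livers coloured by group. *Cpox* moves from between 28.7 and 51.3 in fed to between 70.9 and 79.5 in fasted livers, *Ppox* lies lowest in the fasted livers, and *Alas1* ranges between 27.7 and 85.3.

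Genes around the path were described on the fasting response averaged over both genotypes, in which 32.8% of all tested genes passed, 16% higher and 16.8% lower. Among 13 other genes of heme synthesis and of mitochondrial transport for it, 3 rose and 4 fell. *Abcb10*, a transporter of the inner mitochondrial membrane, fell by 0.77 (SE 0.11, adjusted p = 0.000197), and *Tmem14c*, which is needed for protoporphyrinogen to enter the matrix, fell by 0.53 (SE 0.10, adjusted p = 0.00115). The iron carriers did not move alike: *Slc25a37* (mitoferrin 1) fell by 0.51 (adjusted p = 0.00567) and *Slc25a28* (mitoferrin 2) rose by 0.51 (adjusted p = 0.0109). The deposited counts of *Slc25a37* were not whole in any of the 12 mice. *Slc25a39*, a mitochondrial glutathione carrier, rose by 0.43 (adjusted p = 0.00237), and *Clpp*, a subunit of the protease that degrades ALAS1, rose by 0.39 (adjusted p = 0.00645).

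*Abcb10* was at 25.5, 32.0 and 28.3 CPM in fed and at 17.4, 14 and 19.7 CPM in fasted *Nts*+/+ livers, and at 29.3, 29.4 and 26.9 CPM and at 15.1, 14 and 20.1 CPM in *Nts*-/- livers. Fed and fasted livers did not overlap in either genotype. *Abcb10* overlaps *Gm20388*, whose highest count in a library was above the highest of *Abcb10*, 1107. The deposited counts of *Abcb10* were not whole in 10 of the 12 mice. Its fall was not tested with the counts of both genes summed. *Alas2*, the erythroid form of the first enzyme, was listed as lower by 0.77 (SE 0.17, adjusted p = 0.00323), but it lies within *Apex2*, which rose by 0.90 (adjusted p = 6.89e-05), and its deposited counts were not whole in any of the 12 mice. With the counts of both summed the value was -0.31 (adjusted p = 0.0762). The red cell genes *Slc4a1*, *Epb42* and *Gata1* had at most 8 counts in any library, and *Klf1* had between 36 and 143. The hemoglobin genes were present in each library, with *Hba-a2* at between 1541 and 6912 counts and *Hbb-bs* at between 2369 and 11663. The 9 erythroid markers, hemoglobin genes among them, summed to between 235.5 and 604 CPM in fasted and between 268 and 630 CPM in fed livers.

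Among 12 genes of heme uptake, export and breakdown, 4 rose and 2 fell. *Flvcr2*, a membrane transporter of choline that has also been linked to heme, was at 6.65, 5.85 and 9.09 CPM in fed and at 16.1, 14.8 and 14.4 CPM in fasted *Nts*+/+ livers. It was at 6.96, 6.01 and 6.69 CPM and at 14.5, 15.8 and 14.8 CPM in *Nts*-/- livers. Each fasted liver was above each fed one, and the log2 fold change over both genotypes was 1.13 (SE 0.11, adjusted p = 7.87e-06). *Slc48a1*, which carries heme out of lysosomes, rose by 0.48 (SE 0.08, adjusted p = 0.000522), and *Abcg2*, an exporter of porphyrins and many drugs, by 0.48 (SE 0.09, adjusted p = 0.00152).

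*Hp*, which encodes haptoglobin, rose by 0.89 (SE 0.15, adjusted p = 0.000693), while *Hpx* had a value of -0.21 (SE 0.16, adjusted p = 0.319) in the same comparison. *Hp* went from 2653, 2764 and 2624 CPM in fed to 5498.5, 3936 and 3769 CPM in fasted *Nts*+/+ livers. The *Nts*-/- livers went from 2167, 1281 and 2390.2 CPM to 4074, 3609 and 4524.5 CPM. *Hmox1*, the inducible heme oxygenase, was at 0.75 (SE 0.33, adjusted p = 0.11) and did not pass. It was at 40.6, 34.1 and 23.5 CPM in fed and at 29.7, 92.5 and 38.3 CPM in fasted *Nts*+/+ livers, and without mouse 282 the value over both genotypes was 0.43. *Lrp1*, the receptor of the hemopexin-heme complex, fell by 0.40 (SE 0.13, adjusted p = 0.0299), and *Gsta1*, a glutathione transferase that can bind heme, fell by 2.86 (SE 0.92, adjusted p = 0.0423) from levels of between 0.266 and 21.2 CPM in fed livers. Both calls were unsteady. That of *Lrp1* was lost without mouse 254, 257, 322, 277 or 284 (adjusted p between 0.0599 and 0.0831). *Gsta1* has a near-identical paralog, its call was lost without any 1 of 9 mice (254, 257, 265, 282, 322, 319, 284, 290 and 295, adjusted p between 0.0552 and 0.0966), and its value was -1.82 without mouse 319.

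Among 10 genes listed as known or possible regulators of *Alas1*, 4 rose and none fell. The list mixes coactivators and repressors, so the count has no direction of action. *Ppargc1a*, the coactivator PGC1α, rose by 0.87 (SE 0.24, adjusted p = 0.0155). It was at 6.78, 25 and 13.5 CPM in fasted *Nts*-/- mice 284, 290 and 295, and between 5.54 and 8.06 CPM in fed livers. Without mouse 290 its value was 0.60 over both genotypes, and 0.44 in *Nts*-/- livers, where it was 0.99 with all mice. *Bach1*, a repressor that heme inactivates, rose by 0.54 (SE 0.11, adjusted p = 0.00165), and *Nr1d2*, a heme-binding nuclear receptor, by 0.77 (SE 0.25, adjusted p = 0.0369), a call that was lost without a count filter (adjusted p = 0.102) and without mouse 257, 323, 265, 282, 322, 277 or 303 (adjusted p between 0.0576 and 0.0868). Without mouse 295 the value of *Nr1d2* was 0.49. *Nr1i3*, the nuclear receptor CAR, rose by 1.08 (SE 0.11, adjusted p = 7.36e-06). Its response was 0.49 in *Nts*+/+ and 1.68 in *Nts*-/- livers, a difference of 1.18 (unadjusted p = 6.43e-05, adjusted p = 0.888) that did not pass over all genes. *Nr1d1* was at 0.55 (SE 0.64, adjusted p = 0.553) and did not pass. The deposited counts of *Nr1i3* and *Nr1d1* were not whole in any of the 12 mice, and these genes overlap *Tomm40l* and *Thra*.

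Among 15 enzymes that use heme, 7 rose and 2 fell. The fatty acid hydroxylases *Cyp4a10* and *Cyp4a14* rose by 3.63 and 3.50 (adjusted p = 1.28e-05 and 1.04e-07), the tryptophan oxygenase *Tdo2* by 1.19 (adjusted p = 4.09e-05), *Cyp2e1* by 1.16 (adjusted p = 3.52e-05) and cytochrome c (*Cycs*) by 0.78 (adjusted p = 9.46e-05). *Cyp51* of cholesterol synthesis fell by 2.53 (adjusted p = 4.95e-06) and *Cyp1a2* by 1.28 (adjusted p = 0.000958). Of 15 acute phase proteins, a class that holds both *Hpx* and *Hp*, 4 rose and 7 fell. *Lcn2* rose by 2.57 (adjusted p = 0.00191), *Serpina3n* by 1.17 (adjusted p = 0.000875) and *Itih3* by 0.43 (adjusted p = 0.0185) beside *Hp*, and *Saa2* fell by 0.81 (adjusted p = 0.0033). All 4 that rose are named here, but not all of the 7 that fell. The median log2 fold change of the 15 acute phase proteins was -0.38, and 4 of the 15 values were above 0. *Cyp4a10*, *Cyp4a14* and *Saa2* have close paralogs, and their deposited counts were not whole in 12, 0 and 1 of the 12 mice. Those of *Cycs*, *Cyp1a2*, *Cyp51* and *Serpina3n* were not whole in 12, 10, 7 and 7 mice. Where counts were not whole, reads could be split with other genes. Between genotypes, and in the difference of the fasting responses, 0 genes of each of these 5 lists passed by edgeR.

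**Figure D4:**
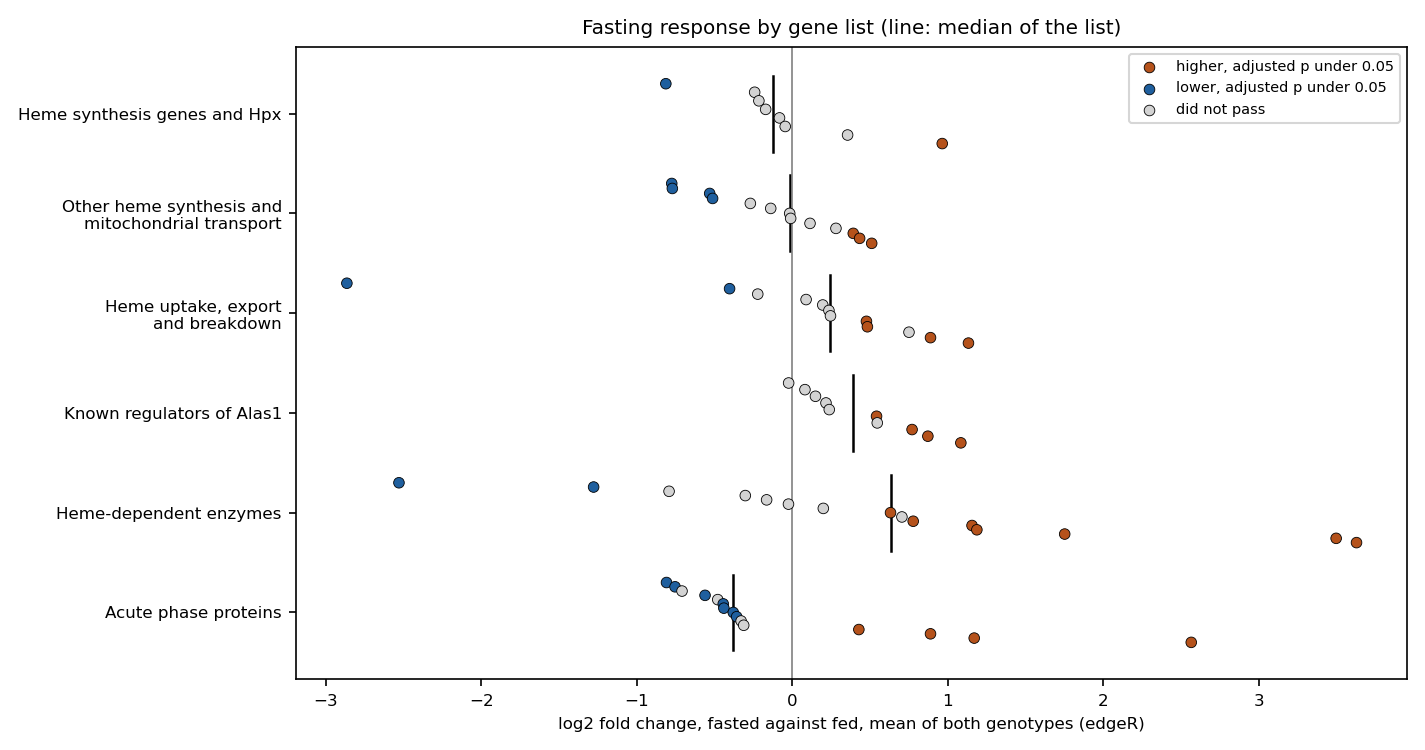
Log2 fold change of fasted against fed livers, averaged over both genotypes (x axis), for each tested gene of 6 lists (y axis). Points are genes coloured by the edgeR call and the vertical line in each row is the median of the list. The row of the 8 genes has *Cpox* at 0.97 and *Ppox* at -0.81 on either side of a group near 0, and heme-dependent enzymes reach from -2.53 to 3.63.

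Markers of other liver cells moved with fasting in part. Of 10 Kupffer cell markers 4 fell in *Nts*+/+ livers and 0 in *Nts*-/- livers, where 9.19% and 9.14% of all tested genes fell. The count in *Nts*+/+ livers was 2, 1, 2, 1 and 7 without mice 254, 257, 265, 282 and 322. Their summed level was between 717.5 and 753 CPM in fed and between 358 and 605 CPM in fasted *Nts*+/+ livers. In *Nts*-/- livers it was between 465 and 594 CPM when fed and between 448 and 659 CPM when fasted. Their part in the changes of *Ppox* and *Cpox* was not tested. Over both genotypes, 3 of 6 stellate cell, 3 of 6 sinusoidal endothelial, 1 of 4 cholangiocyte and 0 of 8 lymphocyte markers fell, and 1 of 6 stellate and 1 of 6 endothelial markers rose. Of 10 hepatocyte markers 3 fell and 3 rose over both genotypes. In that comparison 16.8% of all tested genes fell and 16% rose. Of the adipocyte markers *Adipoq*, *Plin1* and *Lep* had at most 5 counts in any library. *Cidec*, a lipid droplet gene, rose by 6.85 (adjusted p = 1.06e-06), and *Fabp4*, with between 82 and 252 counts per library, did not pass.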

How the data were processed

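Liver RNA of 12 mice was sequenced. The deposited table holds expected counts from the authors (estimates of the reads from a gene, which can be fractional), with Ensembl identifiers and GRCm38 positions. The submitters' processing notes name Trimmomatic and RSEM, and their versions, the aligner and the use of strand are not given in the sources used here. Columns of other samples numbered 0.

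Counts were rounded. In R 4.3.3, edgeR 4.0.16 kept 13812 genes (filterByExpr), normalized with TMM and fitted a mean per group over all 12 mice, with robust quasi-likelihood tests. Benjamini-Hochberg adjusted p values over these genes passed under 0.05. Exact permutation tests were two-sided. A floor of 3 counts is between 0.0709 and 0.142 CPM, and covers counting error only. Replicates were separate mice of 1 batch. Transcript lengths came from the canonical transcripts of the GENCODE annotation, found by identifier for 99.2% of the genes tested, and promoters from RefSeq. Of 131 symbols on the lists, 129 were matched, and a few genes are not reported here.

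The 8 genes and all lists were chosen with earlier results of these data known. Named genes are the 8 members with *Alas2*, *Hmox1*, *Hp*, *Ppargc1a* and *Nr1d1*, and up to 6 genes of each list with the smallest p among those that passed in a fasting comparison within 1 genotype. *Slc25a28*, *Lrp1*, *Gsta1*, *Cyp1a2*, *Itih3* and the overlapping genes were picked with their values in view. Alternatives were DESeq2 1.42.0, RLE normalization, a minimum of 10 counts in each mouse, no filter, a fit to the 6 mice of a comparison, leaving out each mouse and, chosen after seeing the data, summed counts of overlapping genes.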

Additional observations from a re-analysis of the deposited data

How the results depend on the processing

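The number of the 8 genes that passed (2 with fasting in *Nts*+/+ livers, 1 in *Nts*-/- livers, 2 over both genotypes, and 0 in the 3 other comparisons) was the same under RLE normalization, DESeq2, no filter, at least 10 counts in every mouse, the 6 mice compared alone and without each mouse. No paired analysis was possible because mouse numbers are not shared between groups. Summed with *Bccip*, *Uros* turned to 0.356 and 0.14 with fasting in *Nts*-/- livers and over both genotypes, and to -0.103 between genotypes in fed livers. *Bccip*, which had more counts, was itself at 0.525, 0.246 and -0.253 in these comparisons. The sums thus follow *Bccip* and do not show a change of *Uros* itself. These alternatives were chosen after seeing the data. Leaving out 1 mouse changed the sign of values that had not passed. With fasting in *Nts*+/+ livers, *Urod* ranged from -0.213 to 0.00122, *Uros* from -0.489 to 0.0481 and *Nr1d1* from -0.696 to 0.318. In *Nts*-/- livers, *Alas1* ranged from -0.0149 to 0.77, *Fech* from -0.175 to 0.0194, *Hpx* from -0.411 to 0.0932 and *Urod* from -0.105 to 0.122, and over both genotypes *Urod* from -0.103 to 0.0152. Between genotypes in fed livers, *Alas1* ranged from -0.619 to 0.0387, *Cpox* from -0.0523 to 0.405 and *Hpx* from -0.484 to 0.0246, and in fasted livers *Fech* from -0.0357 to 0.159 and *Urod* from -0.0953 to 0.138. For the difference between fasting responses, *Alad* ranged from -0.121 to 0.0788, *Alas1* from -0.364 to 0.421, *Cpox* from -0.316 to 0.142, *Fech* from -0.078 to 0.113, *Hpx* from -0.187 to 0.315, *Urod* from -0.0104 to 0.22 and *Uros* from -0.158 to 0.378. The cause was not tested. Of all tested genes, between 1224 and 2418 passed with fasting in *Nts*+/+ livers without 1 mouse (2501 with all; 1326, 1596 and 1224 without mice 254, 257 and 282), and between 1358 and 2631 in *Nts*-/- livers (2326 with all; 1358, 1523 and 1365 without mice 277, 284 and 290).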

Other observations

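The tested genes whose log2 CPM followed *Alas1* most closely over the 12 mice were *Tsku* (Pearson r = 0.858), *Ccdc134* (0.827), *1810026J23Rik* (0.819), *Fam13b* (0.818) and *Fam98a* (0.818). For *Hpx* they were *Ugt2b5* (0.912), *Mad2l1bp* (0.91), *Gtf2h4* (0.91), *Prrg2* (0.905) and *Bad* (0.895). For *Cpox*, which was added after its values were seen, they were *Chpt1* (0.979), *Ttpa* (0.976), *Serinc1* (0.975), *Gm13910* (0.975) and *Wdr73* (0.975). *Cpox* and *Ppox* had r = -0.903 over the 12 mice and -0.798 after the group means were subtracted. Both genes were picked for their opposite changes with fasting, from which a negative first value follows. *Cpox* varied little among fasted livers, so the second value rests mostly on the fed ones. *Alas1* had r = 0.129 with *Ppargc1a* and 0.0301 with *Nr1d1*, and *Hpx* had r = 0.711 with *Urod*. With group means subtracted, other genes came first: *Glyctk* (0.927) for *Alas1*, *Tmem160* (0.965) for *Hpx* and *Cyp4a10* (0.96) for *Cpox*. That step moved *Hpx* with *Hp* from 0.0788 to 0.654, and *Alas1* with *Nr1i3* from 0.259 to -0.625. These values are descriptions over 12 libraries that share groups of 3 and differ in depth, and the top genes were picked from all tested genes.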
